A study of Mus musculus with 6 samples.

Results

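Hox genes encode homeodomain transcription factors that lie in the clusters Hoxa, Hoxb, Hoxc and Hoxd on separate chromosomes. Every row of the deposited gene table whose symbol was Hox, a cluster letter and a number was taken, which gave 33 of 22087 genes. Paralogue groups 1 to 11 were all represented, group 12 had no row and group 13 had Hoxb13 alone. Of the 33 genes, 31 had enough reads to be tested, Hoxa11 and Hoxb13 did not, and 29 had a mean of at least 1 CPM, a gene's reads scaled to a common library size, over the 6 libraries.

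The libraries were made from the poly(A) fraction of dorsal root ganglia, the sensory ganglia beside the spinal cord, of mice aged 3 months. The 3 control libraries came from Kif2a fl/fl mice, whose Kif2a alleles are flanked by loxP sites and which carry no Cre. The 3 conditional knockout libraries, shortened here to knockout, came from Kif2a fl/fl; Avil Cre mice, in which the advillin gene Avil drives Cre in sensory neurons, so other cells of the ganglion keep intact alleles. The floxed alleles are thus shared by both groups, while a Cre control without floxed alleles was not analysed here. The labels give neither the spinal levels of the ganglia nor whether each library came from its own animal, so the spread behind each p-value is that of these libraries and may in part be technical.

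In vertebrate embryos, a gene's number within its cluster goes with its place along the body. Low-numbered genes are used from the hindbrain and neck backwards, and each higher number starts nearer the tail. In motor neurons of the mouse, members of the middle groups mark forelimb and thoracic levels and members of groups 10 and 11 mark lumbar and sacral levels. Adult ganglia keep much of this order, so the balance of high against low numbers in a library was taken here as a possible relative readout of the levels that it holds. Markers of other tissues also differed between libraries, and their part in the balance was not tested. No library of known level was analysed here, so the balance orders these libraries by their Hox counts only and assigns no vertebra.

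The sequences below belong to Hoxb8 and Hoxd10, the member with the smallest p between the groups and the member of group 10 with the widest range over libraries. Each promoter runs from 250 bases before the start site to 50 after it, read on the plus strand of GRCm38.p6 from RefSeq. Capitals mark TTTATNG, the letters favoured by posterior Hox proteins.
Hoxb8, chr11:96281655-96281954: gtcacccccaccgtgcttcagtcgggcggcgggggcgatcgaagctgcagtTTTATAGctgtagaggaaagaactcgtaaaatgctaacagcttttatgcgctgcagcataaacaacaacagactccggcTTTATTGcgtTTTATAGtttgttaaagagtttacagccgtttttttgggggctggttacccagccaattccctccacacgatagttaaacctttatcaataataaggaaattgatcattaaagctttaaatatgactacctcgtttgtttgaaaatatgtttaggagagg
Hoxd10, chr2:74691641-74691940: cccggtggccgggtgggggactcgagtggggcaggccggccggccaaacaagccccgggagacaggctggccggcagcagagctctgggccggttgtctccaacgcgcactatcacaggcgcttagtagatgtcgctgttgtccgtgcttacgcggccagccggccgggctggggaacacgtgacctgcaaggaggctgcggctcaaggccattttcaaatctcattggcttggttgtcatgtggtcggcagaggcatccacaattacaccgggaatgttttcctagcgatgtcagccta

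The Hoxb8 window held TTTATNG at 3 places and the Hoxd10 window at 0, with both strands searched. Over 32851 RefSeq promoters of the same length, 10.9% held these letters. TGATTNAT, the composite site of Pbx and Hox proteins, occurred in neither window and in 3.2% of all promoters. The Meis letters TGACAG occurred in neither window and in 19.2% of all promoters. Promoters were matched for 18 of the Hox genes, with 20 windows, and each motif was in 2 of them. GC content was 42.3% for Hoxb8 and 62.7% for Hoxd10.

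The Hox clusters also encode miR-196, which in mouse embryos cleaves Hoxb8 mRNA at a site of near-perfect pairing. The mature forms share 1 seed, bases 2 to 8, which is in capitals, and the capitals of the target site are the bases that face it.
miR-196a-5p: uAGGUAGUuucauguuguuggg
miR-196b-5p: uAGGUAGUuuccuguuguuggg
Hoxb8 site, chr11:96284888-96284909, plus strand: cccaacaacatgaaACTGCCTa

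Of the 22 bases of the Hoxb8 site, 21 pair with miR-196a-5p by Watson-Crick rules and 1 by a G:U pair, with 0 mismatches. The site starts at base 418 of a 3′ untranslated region of 845 bases. A perfect match to the seed was found in the 3′ untranslated regions of 8 of 31 Hox genes, among them Hoxa4, Hoxa5, Hoxa7, Hoxa9, Hoxb6, Hoxb7 and Hoxc8, beside 6.8% of 14858 tested genes with such a region. Hoxb8 is not among the 8, because its G:U pair lies in the bases that face the seed. Lengths were not matched in that count. Poly(A) libraries do not measure mature miRNAs, so their levels are unknown here.

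Library totals ran from 21683083 to 31626625 counts. Kif2a itself, a kinesin that depolymerises microtubule ends, averaged 85.6 ± 4.87 CPM over control and 67.9 ± 1.70 CPM over knockout libraries (SD, n = 3 libraries each), with an edgeR adjusted p of 1.0 and an exact permutation p, 2-sided, of 0.1, the smallest that 3 against 3 libraries can give. Avil went from 582 ± 17.5 to 287 ± 68.7 CPM (SD, n = 3), with an edgeR adjusted p of 0.444 and a DESeq2 adjusted p of 5.27e-05. Markers of sensory neurons summed to 9562, 8513 and 9754 CPM in control and to 7535, 10089 and 8873 CPM in knockout. That list includes Avil itself, so its sums are not independent of the Cre driver gene. Markers of other tissues were uneven: those of spinal cord and brain were highest in control replicate 2, and those of skeletal muscle and fibroblasts were highest in knockout replicate 1. These 2 libraries are called the marker-rich libraries. For Hox genes of at least 1 CPM, fold changes without them are given, in part in the closing section, where they move by over 1.5 times.

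Hox transcripts were present in every library, and per kilobase of exon groups 6 to 10 were the highest. The summed Hox level was 280, 313 and 306 CPM in control replicates 1 to 3 and 334, 267 and 278 CPM in knockout replicates 1 to 3. The means were 299.7 ± 17.4 and 292.8 ± 36.2 CPM (SD, n = 3). The highest sum was that of knockout replicate 1 and the lowest that of replicate 2 of the same group, so the groups overlapped.

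Per kilobase of exon, which allows levels of different genes to be compared, Hoxa9 was highest at 13.1 CPM per kilobase, averaged over the libraries. Hoxa10 and Hoxb7 followed at 10.1 each. Hoxd1, a gene that in mouse nociceptors takes part in the wiring of pain circuits, came next at 9.40 CPM per kilobase. Hoxc6, Hoxa7 and Hoxd8 were at 8.58, 8.49 and 7.92. Among the genes at the other end were Hoxc11 at 0.533, Hoxd3 at 0.531, Hoxa11 at 0.225 and Hoxb13 at 0.0317 CPM per kilobase.

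Summed by paralogue group on the same scale, control levels climbed from 1.38 ± 0.0845 CPM per kilobase in group 2 to 28.8 ± 1.16 in group 9. They then went down to 18.4 ± 4.58 in group 10 and 1.89 ± 1.59 in group 11 (SD, n = 3). Group 1 breaks this climb, since Hoxd1 alone averaged 9.40 CPM per kilobase over the libraries. The sums also cover unlike numbers of genes, such as 2 in groups 2 and 7 and 4 in group 9. In knockout the sums of groups 2, 9, 10 and 11 were 1.67 ± 0.288, 28.0 ± 0.761, 21.2 ± 6.33 and 2.47 ± 0.967 CPM per kilobase. In summed CPM, group 9 was the steadiest, with a highest library only 1.06 times the lowest, and group 11 the least steady among groups 1 to 11, at 7.22 times.

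**Figure D1:**
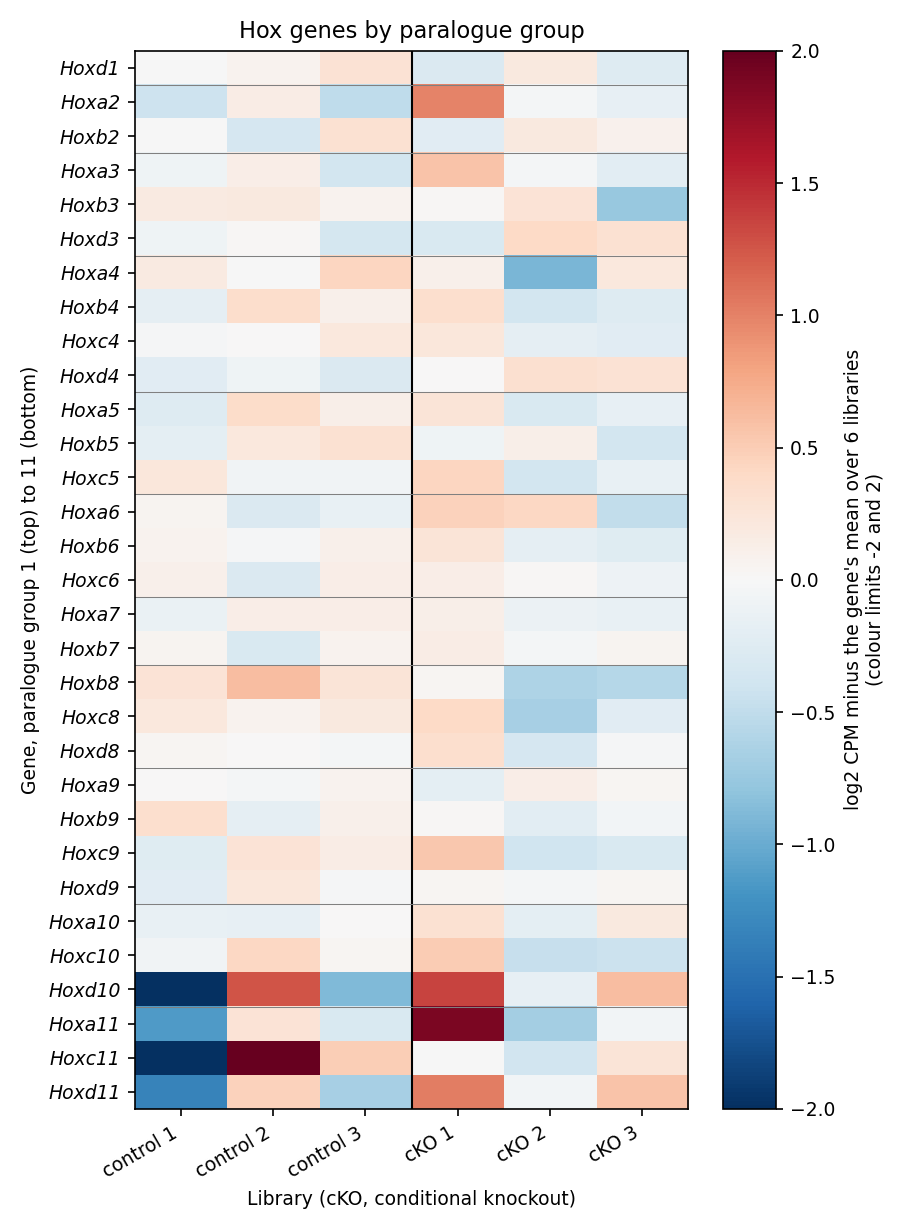
Level of 31 Hox genes (rows, ordered by paralogue group) in the 6 libraries (columns), as log2 CPM minus the gene's own mean, with colour limits of -2 and 2. Most rows of groups 4 to 9 are pale, while Hoxd10, Hoxc11 and Hoxd11 at the bottom are low in control replicate 1, and Hoxc11 is high in control replicate 2.

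Across all tested genes, edgeR called 4 of 17759 at an adjusted p under 0.05, or 0.0225%, and 0 of 31 Hox genes. At an unadjusted p under 0.05 it had 4.67% of all genes, and 1 of 31 Hox genes, or 3.23%, which was Hoxb8. The groups did not overlap for 8.66% of all genes and for 2 of 31 Hox genes, or 6.45%, namely Hoxb8 and Hoxd4. DESeq2 called 28 genes, of which 0 were Hox genes. Of the 31 Hox genes, 13 had higher and 18 lower fitted values in knockout, with a median log2 fold change of -0.07 against 0.0059 over all genes. The Hox shares were thus no higher than those of the whole table under these 3 rules.

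**Figure D2:**
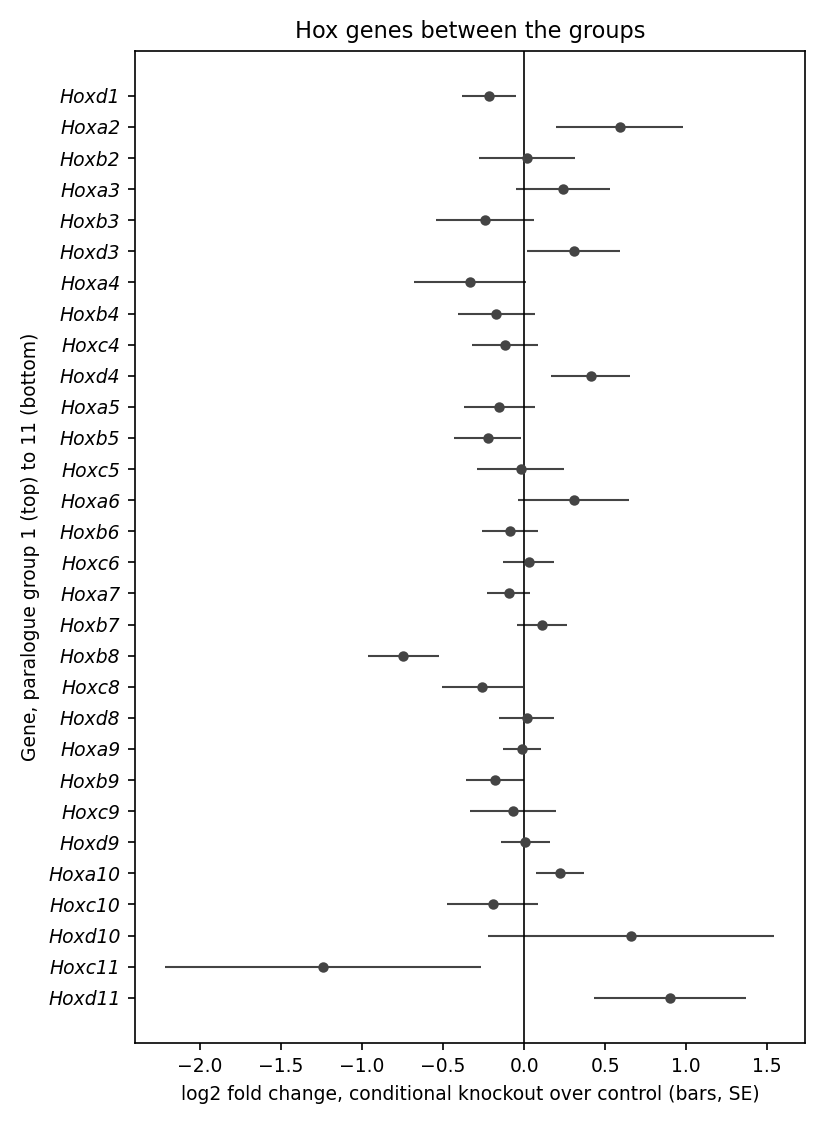
log2 fold change, knockout over control, of 30 tested Hox genes (points) with standard errors (bars), ordered by paralogue group. Most points lie near 0, Hoxb8 is at -0.75 with a short bar, and the widest bars belong to Hoxd10 at 0.66 and Hoxc11 at -1.24.

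The genes of groups 2 and 3 averaged 0.531 to 0.975 CPM per kilobase, and no gene of groups 1 to 3 passed the test. Hoxa2 and Hoxb2, which pattern the hindbrain, had mean levels of 1.23 and 1.35 CPM. Hoxa3, Hoxb3 and Hoxd3, which act in the hindbrain, pharyngeal region and neck, were at 2.53, 2.07 and 1.72 CPM. Hoxd1 was at 17.2, 18.1 and 21.2 CPM in control and 14.1, 19.9 and 14.6 CPM in knockout. The control libraries were not all above the others, since knockout replicate 2 exceeded control replicates 1 and 2. The log2 fold change of Hoxd1, knockout over control, was -0.22 ± 0.17 (SE; edgeR adjusted p 1.0). It was -0.11 without control replicate 3, -0.12 without knockout replicate 1, -0.13 without knockout replicate 3, -0.39 without knockout replicate 2 and -0.15 without both marker-rich libraries.

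Several of these anterior rows share exon sequence with another annotated gene, as do 12 Hox rows in all. The share of exon bases was 68.6% for Hoxd3 and 45.1% for Hoxd4 on the same strand, and 63.9% for Hoxb3 and 58.5% for Hoxb2 on the other strand. Whether counting used strand is not given in the sources used here, so reads of these genes cannot be told apart from those of their neighbours.

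For genes of groups 4 to 8, the cervical to thoracic range, the highest library was between 1.21 and 2.53 times the lowest. The median over the 15 genes was 1.59, against 1.46 over all 15523 genes of at least 1 CPM. Levels were not matched in that comparison, and low counts widen such a ratio, so extra variation is not shown. The widest of the 15 were Hoxa4 at 2.53, with 17 to 55 counts in a library, Hoxb8 at 2.37 and Hoxc8 at 2.09 times. Hoxa7, a thoracic gene, had the narrowest range at 19.3, 23.0 and 23.1 CPM in control and 22.9, 19.4 and 19.1 CPM in knockout. Hoxa5 and Hoxc5, which are needed by phrenic motor neurons in the mouse neck, had mean levels of 8.61 and 3.38 CPM. Hoxc6, a gene of forelimb-level motor neurons, had a mean of 13.6 CPM. Group 4, which patterns the neck vertebrae, had mean levels of 1.38 CPM for Hoxa4, 7.39 for Hoxb4 and 5.91 for Hoxc4. Of the rest, Hoxb5 had 7.84 CPM, Hoxa6 0.994, Hoxb6 11.2, Hoxb7 13.04 and Hoxd8 21.7, and no gene of these groups was called. Within these groups, knockout replicate 1 was the highest library for 7 of 15 genes, and knockout replicates 2 and 3 were the lowest for 7 and 5.

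Hoxc8, which in mouse shapes forelimb motor pools and brachial sensory neurons, was at 11.7, 10.7 and 11.7 CPM in control and at 13.4, 6.41 and 8.69 CPM in knockout. The control libraries were tight, while knockout held both the highest and the lowest value. The log2 fold change was -0.26 ± 0.25 (SE), -0.04 without knockout replicate 2, -0.58 without knockout replicate 1, and -0.62 without both marker-rich libraries. Markers of Schwann cells, fibroblasts, skeletal muscle, adipocytes and blood were likewise all highest in knockout replicate 1 and lowest in knockout replicate 2. Satellite glia markers had the same extremes, although knockout replicate 3, at 7251 CPM, was almost level with replicate 1, at 7253 CPM. Sensory neuron markers ran the opposite way. The Schwann cell markers summed to 7322, 5781 and 7119 CPM in control and to 9315, 3864 and 4999 CPM in knockout. The part of any of these cells in the Hoxc8 values was not tested. In bulk tissue, fewer cells of a type and less RNA per cell cannot be told apart.

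Hoxb8 was the member with the smallest p between the groups. Mice lacking it groom to excess and have altered pain responses, and the gene is active in the dorsal spinal cord as well as in blood-forming cells. Its row spans chr11:96281905-96285315 on the plus strand and shares no exon base with another annotated gene. Control replicates 1 to 3 were at 11.5, 14.7 and 11.4 CPM and knockout replicates 1 to 3 at 9.81, 6.21 and 6.42 CPM. All control libraries were above all knockout libraries. The means were 12.5 ± 1.88 and 7.48 ± 2.02 CPM (SD, n = 3), so knockout was at 59.7% of control.

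The log2 fold change of Hoxb8 was -0.75 ± 0.22 (SE). Its edgeR p was 0.00769 before and 0.977 after adjustment over all genes, so it did not pass. An exact permutation test, 2-sided, gave 0.1, its smallest possible p. Over 14 settings the log2 fold change stayed between -0.98 and -0.61 and the adjusted p between 0.117 and 1.0, with 0.315 from DESeq2. In the authors' deposited table Hoxb8 carries the mark for rate and fold, with a log2 fold change of -0.74 and a false discovery rate of 0.00711. That table marks 0.656% of its 22087 genes, and 1 of the 33 Hox genes. It also marks Avil, at a log2 fold change of -1.02 and a false discovery rate of 2.17e-10. Kif2a is not marked there, at a log2 fold change of -0.33 and a false discovery rate of 0.0408.

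The spinal cord and brain markers had the same highest and lowest libraries as Hoxb8. Their summed level was 128, 204 and 129 CPM in control and 142, 85.2 and 85.8 CPM in knockout, so control replicate 2 was highest and knockout replicates 2 and 3 lowest. Knockout replicate 1 lay above control replicates 1 and 3 for the markers and below them for Hoxb8. Of the 12 genes of that list, 11 were in the table and 7 were tested, and all 7 had lower fitted values in knockout at a median log2 difference of -0.66, none of them called. All 6 Schwann cell and all 3 tested bone and cartilage markers were lower too, at medians of -0.13 and -0.73. Sensory neuron markers were 2 higher and 9 lower, with Avil among the lower, satellite glia 4 and 2, fibroblast 4 and 3, and adipocyte 3 and 2. Skeletal muscle and blood had 3 each way. The glial glutamate transporter Slc1a2 was at 16.6, 66.2 and 23.1 CPM in control and 17.2, 11.3 and 8.05 CPM in knockout. Slc6a5, the glycine transporter of spinal neurons, was at 0.456, 2.46 and 0.808 CPM in control and 0.367, 0 and 0.385 CPM in knockout. With control replicate 2 and knockout replicate 1 both left out, the Hoxb8 log2 fold change was -0.85, with an edgeR adjusted p of 0.208. Blood markers, given because Hoxb8 is active in that lineage, summed to 1809, 2976 and 1370 CPM in control and to 3326, 660 and 2091 CPM in knockout. The part of these cells in the Hoxb8 difference was not tested.

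The neighbour Hoxb9 gives a within-cluster comparison. The count ratio of Hoxb8 to Hoxb9 was 0.947, 1.73 and 1.10 in control and 0.995, 0.746 and 0.694 in knockout. These ranges overlap, because knockout replicate 1 lies above control replicate 1. Hoxd4 was the other gene with no overlap between groups, in the opposite direction, at 1.60, 1.76 and 1.52 CPM in control and 1.88, 2.32 and 2.27 CPM in knockout. Its log2 fold change was 0.41 ± 0.25 (SE; edgeR adjusted p 1.0).

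**Figure D3:**
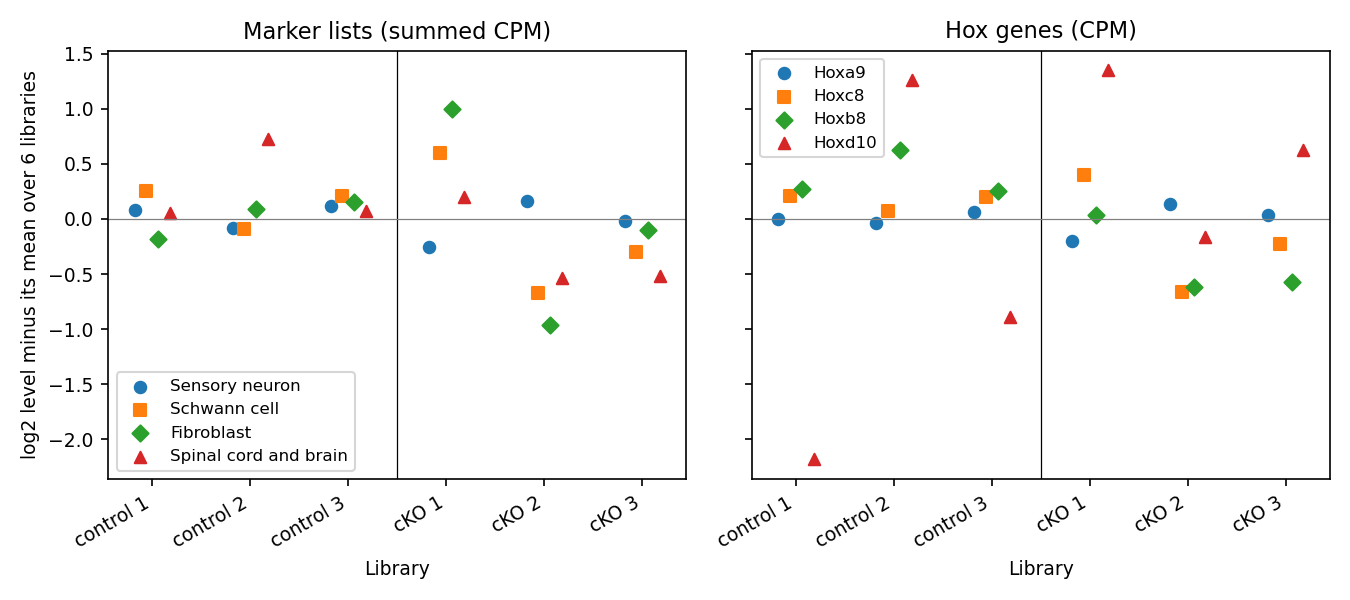
Left, summed CPM of 4 marker lists; right, CPM of 4 Hox genes; each point is 1 library, on a log2 scale relative to that item's mean over the 6 libraries. Hoxb8 and the spinal cord and brain markers are both highest in control replicate 2, Hoxc8 and the Schwann cell markers are both highest in knockout replicate 1 and lowest in replicate 2, and Hoxd10 spans the widest range.

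Most genes of group 9 were even over libraries. Hoxa9 was at 42.2, 41.0 and 44.0 CPM in control and 36.8, 46.2 and 43.3 CPM in knockout, a log2 fold change of -0.01 ± 0.12 (SE). Hoxd9 was at 11.9, 16.3 and 13.7 CPM in control and 14.3, 13.5 and 14.3 CPM in knockout. Hoxc9, which in mouse sets the thoracic motor columns, was more variable, with 9.66, 13.7 and 12.7 CPM in control and 16.5, 8.69 and 9.20 CPM in knockout. Its log2 fold change was -0.07 ± 0.27 (SE), and -0.31 without both marker-rich libraries. Hoxb9 averaged 10.3 ± 1.81 CPM over control and 9.14 ± 0.775 CPM over knockout libraries (SD, n = 3). The groups overlapped for all 4 genes.

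Hoxd10 and the genes of group 11 had wide ranges between libraries, with both groups of libraries overlapping. Hoxa10 and Hoxc10 had narrower ones, although the ratio of 1.95 for Hoxc10 was exceeded by only 19.4% of genes of at least 1 CPM. Over the 6 genes of groups 10 and 11 the highest library was a median of 6.58 times the lowest, from 1.42 for Hoxa10 to 39.0 for Hoxc11. Knockout replicate 1 was highest for 5 of the 6, and control replicate 1 was lowest for 4 of the 6. Counts were low for Hoxa11 and Hoxc11, while Hoxd10 had 28 to 323 counts.

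Hoxd10, a gene of lumbar motor neurons and the hindlimb, spans chr2:74691924-74695105 on the plus strand. It had 28, 317 and 97 counts in control and 323, 125 and 209 counts in knockout, or 1.28, 13.9 and 3.13 CPM and 14.8, 5.17 and 8.94 CPM. The highest library was 11.6 times the lowest, a ratio exceeded by 0.58% of genes of at least 1 CPM. Each group held a high and a low library, and the means of 6.11 ± 6.82 and 9.64 ± 4.85 CPM (SD, n = 3) did not differ beyond their spread. The log2 fold change was 0.66 ± 0.88 (SE; edgeR adjusted p 1.0). Leaving out single libraries moved it to 0.18 (control replicate 1), 2.11 (control replicate 2), 0.35 (control replicate 3) and 0.23 (knockout replicate 1). Without both marker-rich libraries it was 1.66 (edgeR adjusted p 0.364), and limma-trend gave 1.19.

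The next gene downstream, Hoxd9, starts 2621 bases after Hoxd10 ends and was even. The count ratio of Hoxd10 to Hoxd9 was 0.108, 0.852 and 0.229 in control and 1.04, 0.382 and 0.626 in knockout. The ratio to Hoxa10, of the same paralogue group in another cluster, was 0.045, 0.494 and 0.0994 in control and 0.378, 0.188 and 0.248 in knockout. Both ratios were lowest in control replicate 1 and next lowest in control replicate 3.

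Hoxa10 itself, known for setting lumbar identity, was among the even genes, at 28.4, 28.2 and 31.5 CPM in control and 39.1, 27.6 and 36.1 CPM in knockout. Its log2 fold change was 0.22 ± 0.15 (SE; unadjusted edgeR p 0.163), with 0.13 without knockout replicate 1, 0.36 without knockout replicate 2 and 0.10 without both marker-rich libraries. Hoxc10, another gene of hindlimb-level motor neurons, was at 9.35, 13.1 and 10.1 CPM in control and 14.0, 7.16 and 7.32 CPM in knockout. Its log2 fold change was -0.19 ± 0.28 (SE). It was near 0 without control replicate 2 (-0.03), knockout replicate 2 (-0.02) or knockout replicate 3 (-0.03), -0.57 without knockout replicate 1, and -0.41 without both marker-rich libraries. Among the 3 genes of group 10, control replicate 1 was thus low for Hoxd10 alone by a wide margin.

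Hoxd11, a gene of lumbosacral and limb patterning, had 12, 43 and 27 counts in control and 61, 32 and 48 counts in knockout, with a log2 fold change of 0.90 ± 0.47 (SE) and an unadjusted edgeR p of 0.0879. Without control replicate 1 it was 0.59, and without control replicate 2 it was 1.51. Hoxa11 had 4, 11 and 10 counts in control and 32, 6 and 9 in knockout. Hoxd11 ordered the libraries as Hoxd10 did at both ends, highest in knockout replicate 1 and lowest in control replicate 1. In Hoxd11, 23.9% of exon bases are shared with another annotated gene on the same strand. Hoxd10 shares 5.73% of its exon bases with that same gene, so the 2 rows are not fully separate.

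Hoxc11 and Hotair, a noncoding RNA transcribed from the other strand of the same end of the Hoxc cluster, stood high in 1 library. Hoxc11 had 2, 81 and 28 counts in control and 14, 12 and 18 in knockout. Hotair had 1, 46 and 10 counts in control and 16, 6 and 17 in knockout. Control replicate 2 held the most of both and control replicate 1 the least. The log2 fold changes were -1.24 ± 0.97 (SE) for Hoxc11 and -0.46 ± 1.03 (SE) for Hotair, and without control replicate 2 they were 0.28 and 1.49. Hoxb13, a gene of the tail end of the body, had 13 counts in control replicate 3 and 0 in the other 5 libraries.

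**Figure D4:**
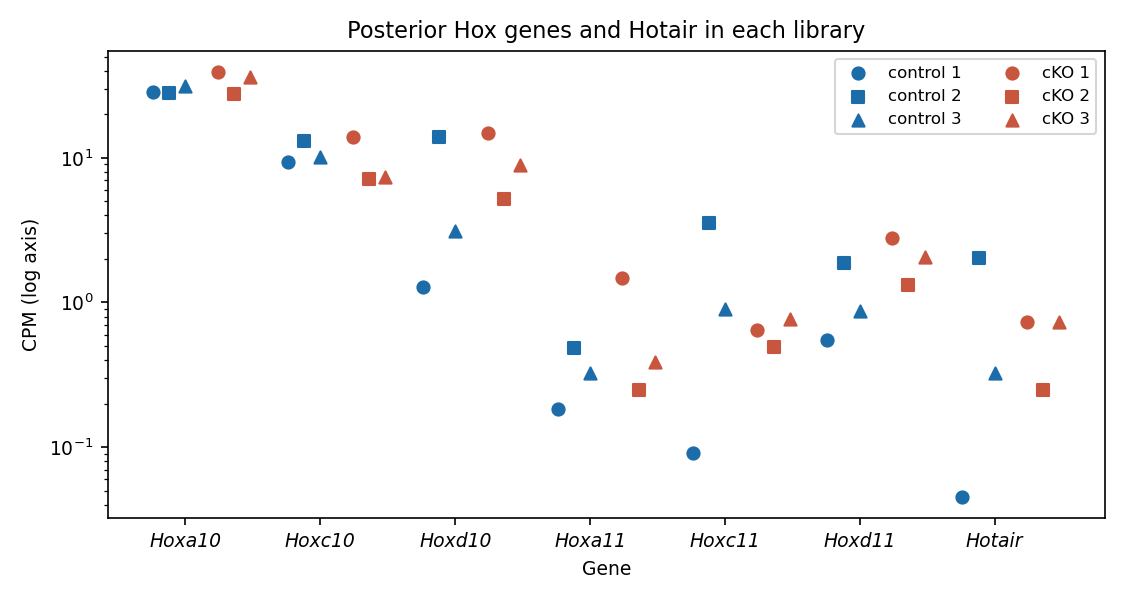
CPM on a log axis of the 6 genes of groups 10 and 11 and of Hotair; each point is 1 library, blue for control and red for knockout, with circles, squares and triangles for replicates 1, 2 and 3. Hoxa10 and Hoxc10 lie in narrower bands than Hoxd10, which spans 1.28 to 14.8 CPM. Control replicate 1 (blue circle) is the lowest point for Hoxd10 and for every gene of group 11.

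To weigh high against low numbers in each library, counts of groups 10 to 13 were taken as a share of all Hox counts. The share was 14.2% in control replicate 1 (Wilson 95% interval 13.4 to 15.1), 19.5% in replicate 2 (18.6 to 20.4) and 15.5% in replicate 3 (14.8 to 16.2). In knockout it was 21.8% in replicate 1 (20.9 to 22.8), 15.7% in replicate 2 (14.9 to 16.6) and 20.01% in replicate 3 (19.06 to 21.004). The intervals cover counting error only. Control replicate 2 and knockout replicates 1 and 3 had shares whose intervals do not touch those of the other 3 libraries. Each group thus held higher and lower libraries, and the means were 16.4 ± 2.76% and 19.2 ± 3.12% (SD, n = 3).

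**Figure D5:**
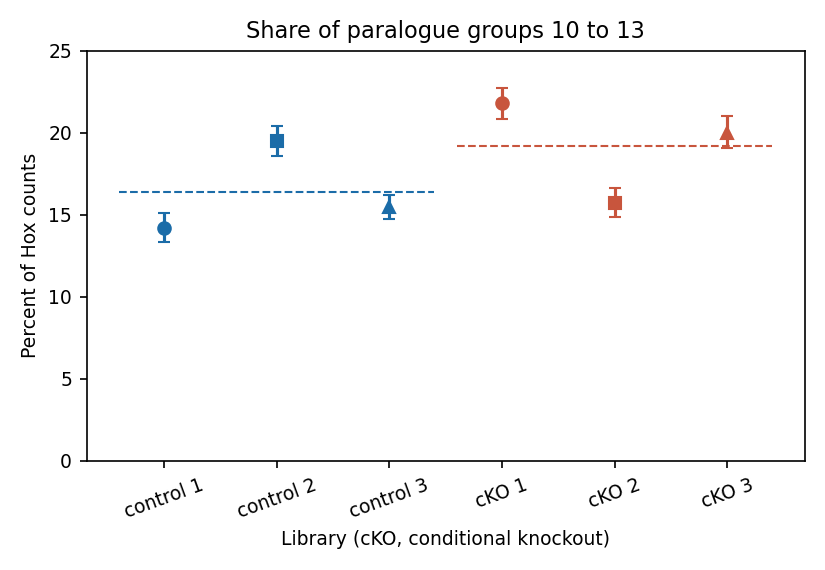
Share of all Hox counts that fell on paralogue groups 10 to 13, in percent, per library; bars are Wilson 95% intervals for counting error and dashed lines are group means. Control replicate 2 and knockout replicates 1 and 3 lie between 19.5% and 21.8%, and the other 3 libraries between 14.2% and 15.7%.

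As a log2 ratio of groups 10 to 13 over groups 4 to 8, the balance was -1.80, -1.24 and -1.65 in control and -1.12, -1.49 and -1.15 in knockout. The means were -1.56 ± 0.286 and -1.25 ± 0.208 (SD, n = 3), a difference of 0.31 that carries no test here because it is a score over chosen genes. The groups overlapped. Without knockout replicate 1 and control replicate 2, the libraries with most foreign markers, the difference was 0.40, and leaving out 1 library at a time gave 0.19 without control replicate 1 to 0.47 without control replicate 2. Hoxa10 supplied between 46.1% and 71.2% of the counts of groups 10 to 13 in a library and Hoxd10 between 3.21% and 22.8%.

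Some marker lists set the same 3 libraries apart as the posterior share did and others did not, and none followed its full order. The 3 libraries of highest share, knockout replicates 1 and 3 and control replicate 2, also had the highest satellite glia markers, which summed to 6209, 6525 and 6212 CPM in control and 7253, 5581 and 7251 CPM in knockout. The same 3 libraries had the highest blood markers and the lowest sensory neuron markers, with the values given above. In these lists knockout replicate 2 stood at the far end, whereas the lowest share was that of control replicate 1. Skeletal muscle markers summed to 95.9, 49.8 and 209 CPM in control and 317, 4.96 and 5.78 CPM in knockout. Fibroblast markers summed to 1669, 2010 and 2096 CPM in control and 3772, 967 and 1763 CPM in knockout. Knockout replicate 3 had a high posterior share with low muscle markers, and control replicate 3 a low share with high muscle markers. The part of these cells and tissues in the Hox values was not tested.

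No partner or regulator of Hox genes passed the test. Of 11 TALE homeodomain cofactors, the Pbx, Meis, Pknox and Tgif proteins, 6 were higher and 5 lower with none called, and Pbx2 had the smallest p at 42.7 ± 3.90 against 35.4 ± 2.29 CPM (SD, n = 3; unadjusted edgeR p 0.0441). Of 27 Polycomb and trithorax genes, which keep Hox clusters silent or active, 15 were higher and 12 lower with none called. Of 22 noncoding RNAs of the Hox clusters, 10 were in the table and 8 were tested, with 4 higher and 4 lower. Of 26 other regulators of axial and limb level, 14 were in the table and tested, with 5 higher, among them Lin28b at a log2 fold change of 0.36 ± 0.21 (SE), and 9 lower, with none called.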

How the data were processed

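The deposited gene table holds raw counts, which are whole numbers of reads, per the file headers. Tools named in the submitters' processing notes are STAR, cutadapt and DESeq2, with mm10 as build; their versions, the counter and its strand setting were not found in the labels or headers. The authors' normalized signal, regularized log2 values, log2 fold changes, p-values and false discovery rates stand beside the counts in the deposited table, per the file headers. Here only the raw counts were tested, and what is quoted from the authors is named so.

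Counts were fitted with edgeR 4.0.16 (R 4.3.3) over all 6 libraries, as 2 groups of 3 without a covariate: filterByExpr with a minimum count of 10, TMM scaling, robust quasi-likelihood test, Benjamini-Hochberg adjustment over 17759 genes, threshold 0.05. The common biological coefficient of variation was 0.205. CPM use TMM-scaled totals. Intervals of shares are Wilson intervals. No 2 libraries agreed within sampling noise, with a chi-square per degree of freedom from 15.5 to 82.2. Positions and exon lengths come from GENCODE M21 (GRCm38), and promoters and miRNAs from RefSeq.

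Named genes were Kif2a, Avil, every Hox gene of at least 1 CPM, the other Hox genes by counts, and up to 3 members of smallest p per list; Slc1a2 and other marker genes come from the marker lists, and Hotair was named after its values were seen. Some genes that this rule selects are not reported here. Members and lists were chosen with earlier results of these data known. Alternatives were DESeq2 1.42.0, limma-trend (limma 3.58.1, prior count 1), other scalings and filters, other definitions of the balance, a replicate block, each library left out, and, chosen after seeing the data, control replicate 2 and conditional knockout replicate 1 left out together.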

Additional observations from a re-analysis of the deposited data

How the results depend on the processing

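No Hox gene was called under any alternative run, including DESeq2 and each library left out. Over all genes the count of 4 became 28 with DESeq2, 0 with the replicate block and 25 without control replicate 2 and conditional knockout replicate 1, an alternative chosen after seeing the data; leaving out 1 library gave 0 to 13. The difference in the Hox balance, 0.31, was 0.17 with groups 9 to 13 over 1 to 8, 0.32 with equal weights, 0.37 without Hoxa10 and Hoxd8, and 0.31 per kilobase, for groups 10 and 11 alone and with the replicate block. Same-numbered libraries of the 2 groups did not deviate together (r of -0.15, -0.24 and -0.13). With 3 libraries per group these correlations cannot decide whether the libraries were paired, and the labels state no pairing.

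Of 238 log2 fold changes of 30 genes under settings other than leaving out 1 library, 223 kept their direction and 15, in 9 genes, did not; the cause was not tested. Without both marker-rich libraries the reversed values were Hoxb2 -0.0081, Hoxc6 -0.14, Hoxb7 -0.039, Hoxd8 -0.16, Hoxa9 0.065 and Hoxc11 0.26. With library totals they were Hoxc5 0.0017 and Hoxa9 0.016, with size factors Hoxa9 5.86e-05, and with the filter of 1 CPM Hoxa9 0.0065. With limma-trend they were Hoxd8 -0.0091 and Hotair 0.47, with the replicate block Hoxd8 -0.0081 and Hotair 0.18, and with no filter Hoxd9 -0.00055. Leaving out 1 library reversed Hoxb2 (-0.12 to 0.21), Hoxa3 (-0.012 to 0.40), Hoxb3 (-0.46 to 0.017), Hoxa5 (-0.32 to 0.011), Hoxc5 (-0.28 to 0.14), Hoxb6 (-0.25 to 0.012), Hoxc6 (-0.084 to 0.11), Hoxd8 (-0.16 to 0.17), Hoxa9 (-0.077 to 0.090), Hoxc9 (-0.41 to 0.10), Hoxd9 (-0.098 to 0.14), Hoxc11 (-1.79 to 0.28) and Hotair (-1.01 to 1.49). Without both marker-rich libraries the log2 fold change of Hoxd3 was 0.59, against 0.31. Also moved were Hoxa2 to 0.37 from 0.59, Hoxa3 to 0.12 from 0.24, Hoxa4 to -0.54 from -0.33 and Hoxb4 to -0.27 from -0.17. Hoxc4 went to -0.29 from -0.12, Hoxc5 to -0.33 from -0.022 and Hoxb6 to -0.29 from -0.088. Hoxb9 went to -0.34 from -0.18 and Hoxd9 to 0.13 from 0.0077. With the replicate block the log2 fold change of Hoxd10 was 1.19, against 0.66. Counts under 20 in a library limit genes that include Hoxa2, Hoxa4, Hoxa6, Hoxa11, Hoxc11, Hoxd11, Hoxb13 and Hotair.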
